A study of Mus musculus with 12 samples.

Results

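Dual-specificity phosphatases remove phosphate from both tyrosine and serine or threonine residues of their substrates. A large branch of the family, the MAP kinase phosphatases, switches off ERK, JNK and p38, the kinases at the end of the cascades that carry growth and stress signals in heart muscle cells. Several of these phosphatases are themselves transcribed in response to the kinases they switch off, and so act as feedback inhibitors, while the smaller atypical members lack the domain by which MAP kinase phosphatases dock on their substrates. The members described here are 9 genes of this family: Dusp1, Dusp3, Dusp4, Dusp5, Dusp6, Dusp7, Dusp10, Dusp16 and Dusp26. They were taken as every probe that carries one of these symbols, 21 of 45281 probe IDs, which amounted to 10 distinct features (sets of IDs with the same value on every array) for 9 of 19013 gene symbols. The family was chosen on the signal of Dusp26 in the comparison of each transgenic line with wild type, and the member list was drawn up with those comparisons known, so members' values against wild type are given as a description without a test.

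MHC-CELFΔ mice of the FVB/N strain carry a transgene, driven by the α-myosin heavy chain promoter and so active in heart muscle cells after birth, for a dominant negative protein that blocks the CELF splicing regulators in the nucleus. Hearts came from 3-week-old females of the severe line, MHC-CELFΔ-10 (severe hearts), of the mild line, MHC-CELFΔ-574 (mild hearts), and of the wild type littermates of each line, with 3 arrays in each of the 4 groups. The hearts were those of 3 females of each line and 3 littermates of each, so that the arrays of a group stand for separate animals. No group was treated, both lines were kept as hemizygotes, and the 6 wild type hearts were pooled as the study did. Whole hearts were used, so that a change in the number of cells of a type and a change in the RNA per cell cannot be told apart. Signals are quantile normalized log2 intensities, on which the median feature lay at 6.28. The median raw intensity ran from 103 to 112 in the littermates of the mild line, the littermates of the severe line and the mild line, and from 116 to 119 in severe hearts. All 7 measured markers of heart muscle lay above the median feature in every group, from a list of 8, although Ryr2, the calcium release channel, fell by 1.11 in mild hearts and 0.49 in severe hearts (adjusted p = 4.0e-07 and 0.00414) and Atp2a2, the calcium pump of the sarcoplasmic reticulum, fell by 0.50 in mild hearts (adjusted p = 5.8e-05). Standard errors (SE) and adjusted p-values are those of limma with Benjamini-Hochberg adjustment over 30854 features, and a feature is called past the threshold at an adjusted p under 0.05, whatever its fold change.

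Dusp26, an atypical dual-specificity phosphatase for which p38 and p53 have been described as substrates in human cells, was far higher in both transgenic lines. Its log2 signal in the wild type hearts ran from 7.12 through a median of 7.29 to 7.48. The mild line arrays read 9.96, 10.16 and 9.89 and the severe line arrays 9.80, 9.39 and 9.77, so that every transgenic array lay above every wild type array. On the raw scale, before background correction, the same probe read 167 to 225 in wild type hearts, 932 to 1134 in mild hearts and 653 to 924 in severe hearts. The log2 fold change was 2.71 in mild hearts (SE 0.11, n = 3 against 6, a 6.55-fold difference) and 2.36 in severe hearts (SE 0.11, n = 3 against 6, 5.13-fold). Among 30854 features only 2 had a larger log2 fold change in mild hearts and 3 in severe hearts, since Dusp26 ranked 3 and 4 respectively.

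**Figure D1:**
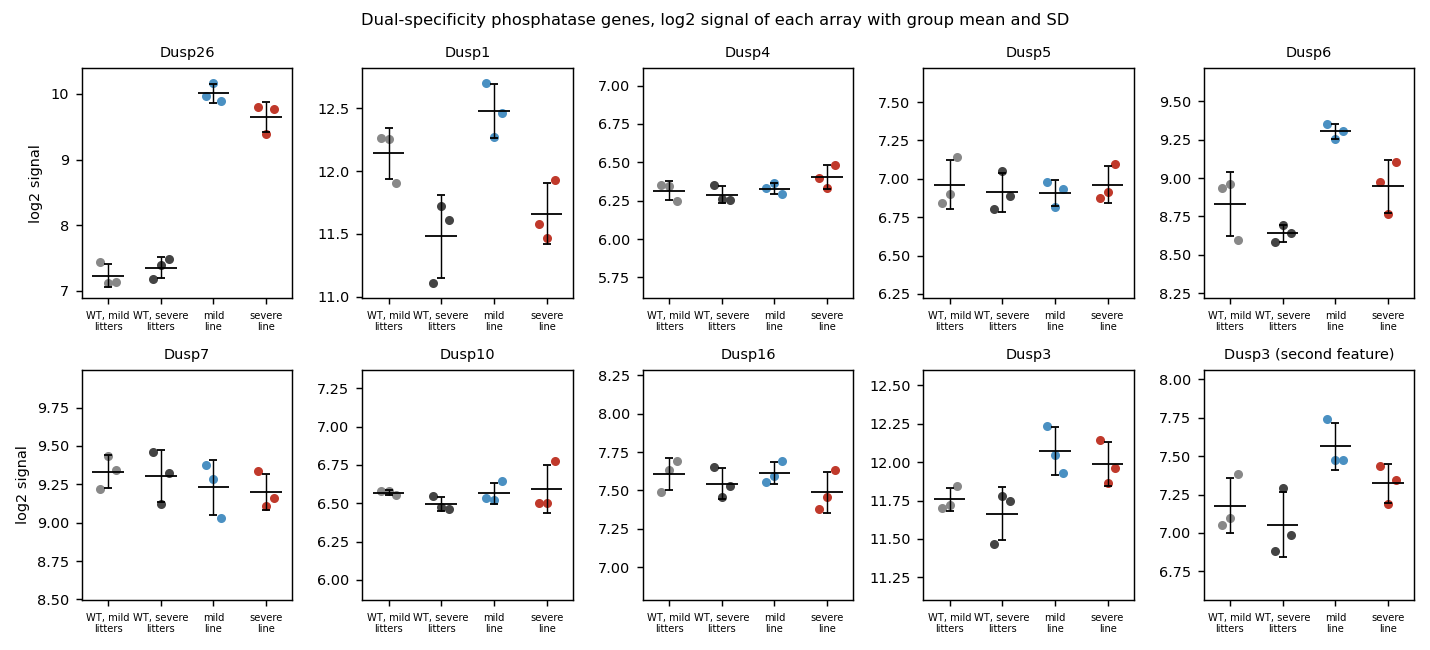
Log2 signal (y axis, 1 panel per feature with its own scale) of the 9 member genes in the 4 groups of 3 arrays: wild type littermates of the mild and of the severe line, mild line and severe line. Points are arrays, horizontal lines are group means and bars are SD. Dusp26 is the only panel in which both lines stand more than 2 log2 units above wild type.

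The difference of Dusp26 held against each line's own littermates, with a log2 fold change of 2.77 in mild hearts and 2.30 in severe hearts (n = 3 against 3). The size was 2.49 in mild hearts and 2.15 in severe hearts with no background correction, 3.02 and 2.65 with a background offset of 16, and 2.47 and 2.13 in the authors' deposited log2 values. The mild line exceeded the severe line by 0.35 (SE 0.12, 95% confidence interval 0.098 to 0.61), which did not pass the test over all features (adjusted p = 0.197), and by 0.22 without severe replicate 2 (adjusted p = 0.527). The wild type littermates of both lines lay close together (adjusted p = 0.802 from limma). They read 7.23 ± 0.18 for the mild line and 7.35 ± 0.16 for the severe line (SD, n = 3 each).

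Across the 12 arrays, the features most like that of Dusp26 by Pearson correlation were those of Celf4, a CELF family gene (r = 0.991), Nmrk2, a nicotinamide riboside kinase (0.983), Park7, a protein that protects against oxidative stress (0.980), Pfkp, a phosphofructokinase of glycolysis (0.980), and Acta1, skeletal muscle α-actin (0.979). The arrays form a wild type and a transgenic cluster for each of these genes, so the gap between the clusters sets most of each correlation. Within groups, after each group's mean was removed from its arrays, the correlations with Dusp26 were 0.44, 0.30, 0.35, 0.23 and -0.016 in the same order. Which transcript the Celf4 feature reads was not tested. These values describe likeness over 12 arrays of 3 groups, without a test.

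The other atypical member, Dusp3, which encodes the phosphatase VHR that acts on ERK and JNK, was slightly higher in both lines. Its brighter feature ran from 11.46 to 11.85 in wild type hearts with a median of 11.74, and read 12.24, 12.05 and 11.93 in mild hearts and 12.15, 11.86 and 11.96 in severe hearts. No transgenic array overlapped the wild type arrays at that feature. The log2 fold change was 0.36 in mild hearts and 0.28 in severe hearts (SE 0.089 each, n = 3 against 6), with only 0.079 in severe hearts when arrays were scaled by their medians. Against each line's own littermates the values of this feature were 0.31 and 0.33. The dimmer feature had wild type values from 6.88 to 7.39 with a median of 7.07, 7.74, 7.48 and 7.48 in mild hearts, and 7.43, 7.19 and 7.35 in severe hearts. There the severe line overlapped the wild type, and the log2 fold changes were 0.45 and 0.21 (SE 0.10 each). Between the lines, the brighter Dusp3 feature differed by 0.081 (95% confidence interval -0.14 to 0.30, adjusted p = 0.828 from limma).

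Dusp6 encodes MKP-3, a cytoplasmic phosphatase that is specific for ERK and is itself induced by ERK signaling. Its wild type values ran from 8.58 through a median of 8.67 to 8.96. The mild line read 9.35, 9.25 and 9.31, all above wild type, while the severe line read 8.97, 8.76 and 9.11 and overlapped it. The log2 fold change was 0.57 in mild hearts (SE 0.095, 1.48-fold) and 0.21 in severe hearts (SE 0.095, 1.16-fold). The value in severe hearts was 0.094 when arrays were scaled by their medians and 0.13 without severe replicate 3. The lines differed by 0.36 (SE 0.11, 95% confidence interval 0.13 to 0.59), which did not pass the test over all features (adjusted p = 0.138). Against their own littermates the log2 fold changes were 0.47 and 0.31, and the difference between those changes was 0.16 (adjusted p = 0.880). Dusp7, a close relative that also acts on ERK in the cytoplasm, lay near its wild type level in both lines. Its wild type range was 9.12 to 9.46, with log2 fold changes of -0.087 in mild hearts and -0.12 in severe hearts (SE 0.090 each), the latter -0.25 when arrays were scaled by their medians.

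Dusp1 encodes MKP-1, a nuclear phosphatase of the immediate early class that acts on p38, JNK and ERK. In wild type hearts its signal split by the line whose littermates they were. The labels do not say which litter a heart came from. The littermates of the mild line read 12.26, 12.26 and 11.90, whereas those of the severe line read 11.11, 11.72 and 11.61. The mild line arrays, at 12.70, 12.27 and 12.46, lay above all wild type arrays, and the severe line arrays, at 11.58, 11.47 and 11.93, lay within the wild type range. Against the 6 wild type hearts the log2 fold change was 0.67 in mild hearts and -0.15 in severe hearts (SE 0.19 each). Against each line's own littermates the values were 0.34 and 0.18, so that the mild line's difference shrank and the sign for the severe line was turned. Over all 22 alternatives the value in severe hearts ran from -0.31 to 0.18. The littermates differed by 0.66 (SE 0.16, n = 3 against 3), which did not pass the test (adjusted p = 0.123 from limma). The mild line exceeded the severe line by 0.82 (SE 0.22, 95% confidence interval 0.36 to 1.28, adjusted p = 0.0748). That same difference passed the test when the littermates of each line were kept as a separate group in the fit (adjusted p = 0.00780). It also passed without replicate 1 of the wild type mice from severe litters (adjusted p = 0.0157). The difference between the lines' changes against their own littermates was 0.16 (adjusted p = 0.942).

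The remaining members lay near their wild type levels in both lines. Dusp4 encodes MKP-2 and Dusp5 an ERK phosphatase, both nuclear and inducible by growth signals. Dusp4 ran from 6.25 to 6.48 over all 12 arrays, near the median feature, and with no detection p-values used here its signal may be background. Its log2 fold changes were 0.026 and 0.10 in mild and severe hearts (SE 0.063 each). Dusp5 had 6.80 to 7.14 in wild type hearts and log2 fold changes of -0.028 and 0.024 (SE 0.082 each). Dusp10 and Dusp16 encode MKP-5 and MKP-7, which prefer JNK and p38 over ERK. Dusp10 had 6.46 to 6.58 in wild type hearts, also a dim feature, and log2 fold changes of 0.033 and 0.061 (SE 0.071 each). Dusp16 had 7.45 to 7.69 and log2 fold changes of 0.039 and -0.086 (SE 0.076 each). For all 5 genes named here or above with small values, Dusp4, Dusp5, Dusp7, Dusp10 and Dusp16, the mild and severe arrays overlapped the wild type arrays.

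Of the 9 members, 3 were past the threshold upward in mild hearts (Dusp3, Dusp6 and Dusp26) and none downward, where 3.55% of all features were past it. In the severe line 1 was, Dusp26, where 3.3% of all features were past it. All 3 mild line arrays lay above all wild type arrays for 4 of 9 genes, beside 3.6% of all features, and below them for 0 of 9, beside 3.92%, and all severe line arrays lay above for 2 of 9, beside 3.59%, and below for 0 of 9, beside 3.63%. The comparison with wild type is the one the family was proposed from, so nothing is read from these counts. At the 2-fold limit used by the study, Dusp26 alone remained in each line. Of all features, 0.269% remained in mild hearts and 0.136% in severe hearts. Without Dusp26, the 8 other genes had log2 fold changes from -0.087 to 0.67 in mild hearts, with a median of 0.036, and from -0.15 to 0.28 in severe hearts, with a median of 0.043. The median over all features was 2.5e-05 in mild hearts and -4.5e-04 in severe hearts.

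The contrast between the lines, which uses the transgenic arrays alone apart from the shared estimate of spread, gave 0 of 9 members past the threshold in limma, beside 1.37% of all features, and 3 at an unadjusted p under 0.05 (Dusp1, Dusp6 and Dusp26, all higher in mild hearts), beside 12.4% of all features. Between the littermates of the lines 0 of 9 members passed, beside 0.0875% of all features, and 1 at an unadjusted p under 0.05, Dusp1, beside 9.97%, a share near that of all features.

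Promoter sequences were taken from RefSeq (GRCm38.p6), where 7 of the 9 members had an entry, Dusp26 and Dusp4 not among them. The 250 bases before each start were searched on both strands for the CArG box, which is bound by serum response factor, and for the cyclic AMP response element TGACGTCA, since Dusp1 and the immediate early genes are known to respond through such elements. The CArG box matched in 1 of 7 promoters, that of Dusp5, and in 1.47% of 32851 promoters of the same length. The response element matched in 1 of 7, that of Dusp1, and in 1.55% of the promoters. The windows of 30 bases that hold them are shown 5′ to 3′ on the strand of the gene, with the motif in capitals. Both Dusp5 windows are shown because its pair of CArG boxes is adjacent.
Dusp5, chr19:53529053-53529082, plus strand: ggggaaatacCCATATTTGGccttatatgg
Dusp5, chr19:53529063-53529092, plus strand: ccatatttggCCTTATATGGgcactcacgt
Dusp1, chr17:26508597-26508626, minus strand: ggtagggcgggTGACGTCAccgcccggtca
These matches are a description of the letters in these windows. Beside them, Dusp5 had log2 fold changes of -0.028 and 0.024, and Dusp1 of 0.67 and -0.15, in mild and severe hearts.

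The question of whether the difference of Dusp26 extends through the family was put to the 18 other genes of the array that encode dual-specificity phosphatases or their inactive relatives. These genes were listed by family name, as those the member list had left over. Both lists were drawn up with earlier results of these data known. Their counts and p-values are therefore a description and not an independent test of the question. In the mild line 2 of 18 rose and 0 fell, where 1.62% of all features rose and 1.93% fell, and in severe hearts 0 rose and 2 fell, where 1.75% rose and 1.56% fell. None of the 18 changed 2-fold, where 0.269% of all features in mild hearts and 0.136% in severe hearts passed the study's 2-fold rule. Their log2 fold changes ran from -0.32 to 0.59 in mild hearts and from -0.45 to 0.42 in severe hearts. Their medians were -0.021 and -0.029. Dusp2, Dusp9, Dusp12, Dusp13, Dusp14, Dusp15, Dusp21, Dupd1 and Styxl1 had wild type means from 5.96 to 6.39, near or below the median feature. Signals of these dim genes may be background, so small values for them do not show that their transcripts stayed unchanged. Counting either line, 4 of 18 were past the threshold, where 5.43% of all features were. An unadjusted p under 0.05 was found for 5 of 18 in mild hearts and 7 of 18 in severe hearts, beside 12.3% and 13.5% of all features.

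**Figure D2:**
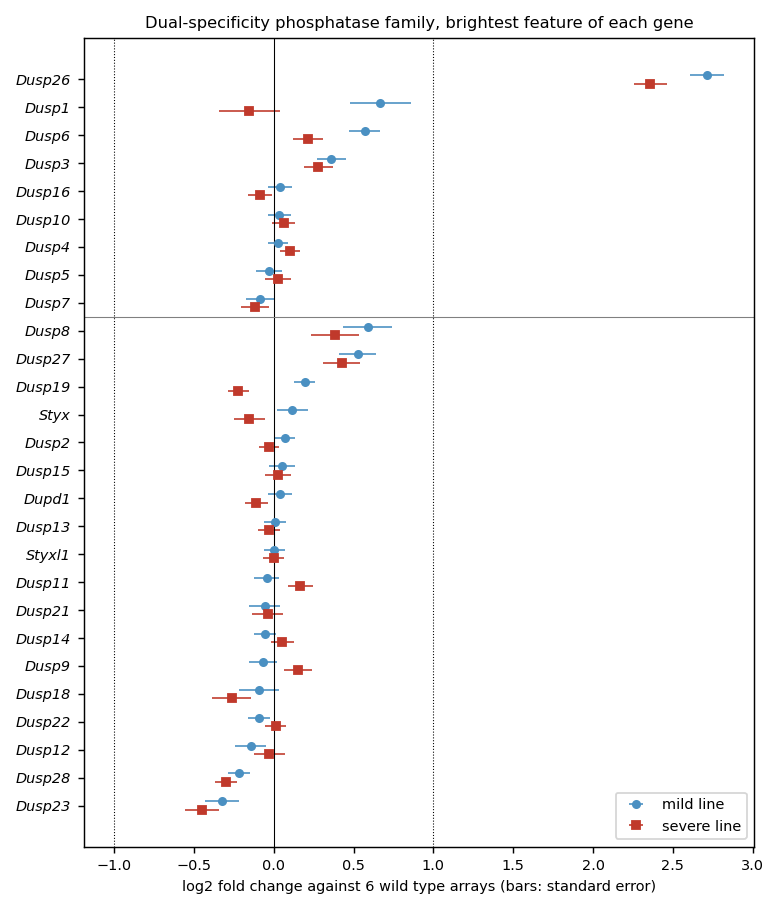
Log2 fold change against 6 wild type arrays (x axis) of the brightest feature of each gene in mild hearts (circles) and the severe line (squares), with SE bars. The 9 members lie above the grey line and the 18 other family genes below it, each in order of the mild line's value, and dotted lines mark a 2-fold change. Dusp26, at 2.71 and 2.36, is the only gene beyond them.

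Dusp8 encodes a phosphatase of JNK and p38 that is found in brain, heart and skeletal muscle, and Dusp27 an inactive relative known from striated muscle. Dusp8 ran from 8.24 to 8.91 in wild type hearts and read 8.92, 9.21 and 9.13 in mild hearts and 8.73, 8.62 and 9.31 in severe hearts. It rose by 0.59 in mild hearts (SE 0.15, adjusted p = 0.0374 from limma) and had 0.38 in severe hearts (adjusted p = 0.244), or 0.17 without severe replicate 3 (adjusted p = 0.723). Dusp27 ran from 7.61 to 7.93 in wild type hearts and read 7.93, 8.32 and 8.66 in mild hearts and 8.09, 8.21 and 8.30 in severe hearts. It rose by 0.53 in mild hearts (SE 0.12, adjusted p = 0.0131) and had 0.42 in severe hearts (adjusted p = 0.0548). The severe line arrays of Dusp27 lay above all wild type arrays, while mild replicate 1 lay at the top of the wild type range. The call of Dusp8, whose adjusted p ran from 0.00936 to 0.210, held under 9 of 22 alternatives. It ended without mild replicate 1, 2 or 3 (0.67, 0.53 and 0.57, adjusted p = 0.0578, 0.210 and 0.151), without replicate 1 or 2 of the wild type mice from mild litters (0.54 and 0.58, adjusted p = 0.0719 and 0.0664) and without replicate 1 or 2 of the wild type mice from severe litters (0.56 and 0.54, adjusted p = 0.0718 and 0.0721). The call of Dusp27 held under 17 of 22 (adjusted p from 5.2e-04 to 0.134) and ended without mild replicate 2 or 3 (0.52 and 0.35, adjusted p = 0.0764 and 0.134). In the severe line Dusp27 passed the test without mild replicate 1 or 3 (0.42 and 0.43, adjusted p = 0.0129 and 0.0169).

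The genes that fell were Dusp23 and Dusp28, small atypical members. Dusp23 ran from 8.15 to 8.55 in wild type hearts and read 8.14, 7.91 and 7.91 in mild hearts and 8.08, 7.72 and 7.80 in severe hearts. It fell by 0.45 in severe hearts (SE 0.11, adjusted p = 0.0217), with -0.32 in mild hearts (adjusted p = 0.124). Dusp28 ran from 8.18 to 8.46 in wild type hearts, with no mild line array above 8.06 and 8.01, 7.92 and 7.96 in severe hearts. It fell by 0.30 in severe hearts (SE 0.069, adjusted p = 0.0185) and had -0.22 in mild hearts (adjusted p = 0.105). For both genes every transgenic array lay below every wild type array. Each call held under 17 of 22 alternatives (adjusted p from 0.0153 to 0.205 for Dusp23 and from 0.00324 to 0.104 for Dusp28). That of Dusp23 ended without severe replicate 2 or 3 (-0.38 and -0.42, adjusted p = 0.129 and 0.107), and that of Dusp28 without severe replicate 1, 2 or 3 (-0.32, -0.28 and -0.30, adjusted p = 0.0561, 0.0890 and 0.0712). The number of these 18 genes past the threshold in a line fell from 4 to 2 without mild replicate 2, severe replicate 2 or severe replicate 3.

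Dusp19, an atypical phosphatase of the JNK pathway, was the 1 of 18 genes that differed between the lines, beside 1.37% of all features. This gene is named after its values were seen. It read 7.87, 7.75 and 7.91 in mild hearts and 7.38, 7.47 and 7.43 in severe hearts, on either side of a wild type range of 7.56 to 7.73. The difference was 0.41 (SE 0.076, adjusted p = 0.00775 from limma). The call ended without mild replicate 3 (0.38, adjusted p = 0.0551), with the gene's features averaged (0.23, adjusted p = 0.156) and when the offset was 16 (0.50, adjusted p = 0.0573), and between the lines' changes against their own littermates the difference was 0.29 (adjusted p = 0.475). Its log2 fold changes against wild type were 0.19 (adjusted p = 0.156) and -0.22 (adjusted p = 0.0840).

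Among the substrates of these phosphatases and the kinases above them, 1 gene passed the test. Of 31 genes for MAP kinases, their kinases and the RAF and RAS proteins, 25 had a named probe. In each line 1 of them rose, the same gene, Mapk12, with 0 falling, beside 1.62% and 1.75% of all features that rose. In either line 1 of 25 was past the threshold, beside 5.43% of all features, so nothing is read from the count. Mapk12 encodes p38γ, the p38 isoform that is abundant in skeletal muscle. It ran from 7.86 to 8.07 in wild type hearts, 8.48, 8.61 and 8.72 in mild hearts and 8.75, 8.72 and 8.75 in severe hearts, with no overlap. It rose by 0.64 in mild hearts (SE 0.069, adjusted p = 8.9e-06 from limma) and by 0.78 in severe hearts (SE 0.069, adjusted p = 1.3e-06), calls that held under all 22 alternatives. Mapk14, which encodes p38α, had -0.29 and -0.16 (adjusted p = 0.158 and 0.535) and is named after its values were seen. The number past the threshold was 3 without replicate 1 of the wild type mice from severe litters.

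Of 9 other phosphatases of MAP kinases, 0 rose in severe hearts, beside 1.75% of all features, and 1 in mild hearts, beside 1.62%. That was Ppm1b, a serine and threonine phosphatase, at 0.24 in mild hearts (SE 0.064, adjusted p = 0.0401 from limma) and 0.22 in severe hearts (adjusted p = 0.0671). The value in severe hearts was 0.040 with arrays scaled by their medians (adjusted p = 0.910), and passed the test with no background correction, with the authors' table and among brighter features only (adjusted p = 0.0186, 0.0253 and 0.0412). Its adjusted p in mild hearts ran from 0.00975 to 0.534, and the call held under 8 of 22 alternatives. It ended without mild replicate 1, 2 or 3 (adjusted p = 0.0820, 0.222 and 0.123), without replicate 1, 2 or 3 of that line's littermates (0.0550, 0.0804 and 0.0652), without replicate 1 or 3 of the wild type mice from severe litters (0.0669 and 0.0593) and without severe replicate 1 (0.0534), at log2 fold changes between 0.22 and 0.27. Of 16 inhibitors and scaffolds of the ERK pathway, among them the Sprouty and Spred genes, 15 were measured. In limma 0 of these passed the test in either line, beside 5.43% of all features. At an unadjusted p under 0.05 there was 1 in each line, beside 12.3% of all features in mild hearts and 13.5% in severe hearts. Their log2 fold changes ran from -0.10 to 0.24 in mild hearts and from -0.16 to 0.19 in severe hearts. The number past the threshold was 1 without replicate 2 of the wild type mice from severe litters. Spry2, Spry3, Spred2, Spred3, Nf1, Ksr1, Lamtor3, Mapk8ip2 and Mapk8ip3 had wild type means from 5.94 to 6.29, near or below the median feature. Their signals may be background, so small values for these genes do not show that their transcripts stayed unchanged.

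Some genes that respond to MAP kinases changed, and they are set beside Dusp1 and Dusp6, which belong to the same kind of response. Of 24 kinases and transcription factors that MAP kinases act on or induce, 17 were measured, of which 1 rose and 1 fell in mild hearts, beside 1.62% and 1.93% of all features, and 2 rose in severe hearts, beside 1.75%. In either line 3 of 17 were past the threshold, beside 5.43%. Etv5, an ETS transcription factor that ERK signaling induces together with Dusp6, ran from 6.76 to 7.06 in wild type hearts. It read 7.69, 7.89 and 7.82 in mild hearts and 7.42, 7.37 and 7.55 in severe hearts, above all wild type arrays. It rose by 0.87 in mild hearts (SE 0.076, adjusted p = 7.3e-07 from limma) and by 0.51 in severe hearts (SE 0.076, adjusted p = 4.4e-04), under all 22 alternatives. Its relative Etv4, a dim feature that lay below the median one in 4 of 6 wild type arrays, had 0.32 in severe hearts (adjusted p = 0.0453) and 0.27 in mild hearts (adjusted p = 0.0963). The call of Etv4 held under only 7 of 22 alternatives (adjusted p from 0.0158 to 0.251). Mapkapk3, a kinase downstream of p38, fell by 0.32 in mild hearts (adjusted p = 0.0461) and had -0.29 in severe hearts (adjusted p = 0.0794), a call that held under 10 of 22 alternatives (adjusted p from 0.0188 to 0.406).

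The calls of Etv4 and Mapkapk3 depended on single arrays. That of Etv4 ended without severe replicate 1 or 3 (0.30 and 0.24, adjusted p = 0.205 and 0.251), without any 1 of the wild type mice from severe litters (adjusted p = 0.0590, 0.0726 and 0.0666 for replicates 1, 2 and 3), without replicate 1 of the wild type mice from mild litters (0.0836) and without mild replicate 1, 2 or 3 (0.0582, 0.0595 and 0.0583). That of Mapkapk3 ended without mild replicate 1, 2 or 3 (-0.31, -0.33 and -0.33, adjusted p = 0.179, 0.147 and 0.137), without replicate 1 or 3 of the wild type mice from severe litters (0.0884 and 0.0804), without severe replicate 2 (0.0548) and without replicate 2 of the wild type mice from mild litters (0.0534). The number of genes of this list past the threshold fell from 3 to 1 without replicate 3 of the wild type mice from severe litters or without mild replicate 1, 2 or 3.

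**Figure D3:**
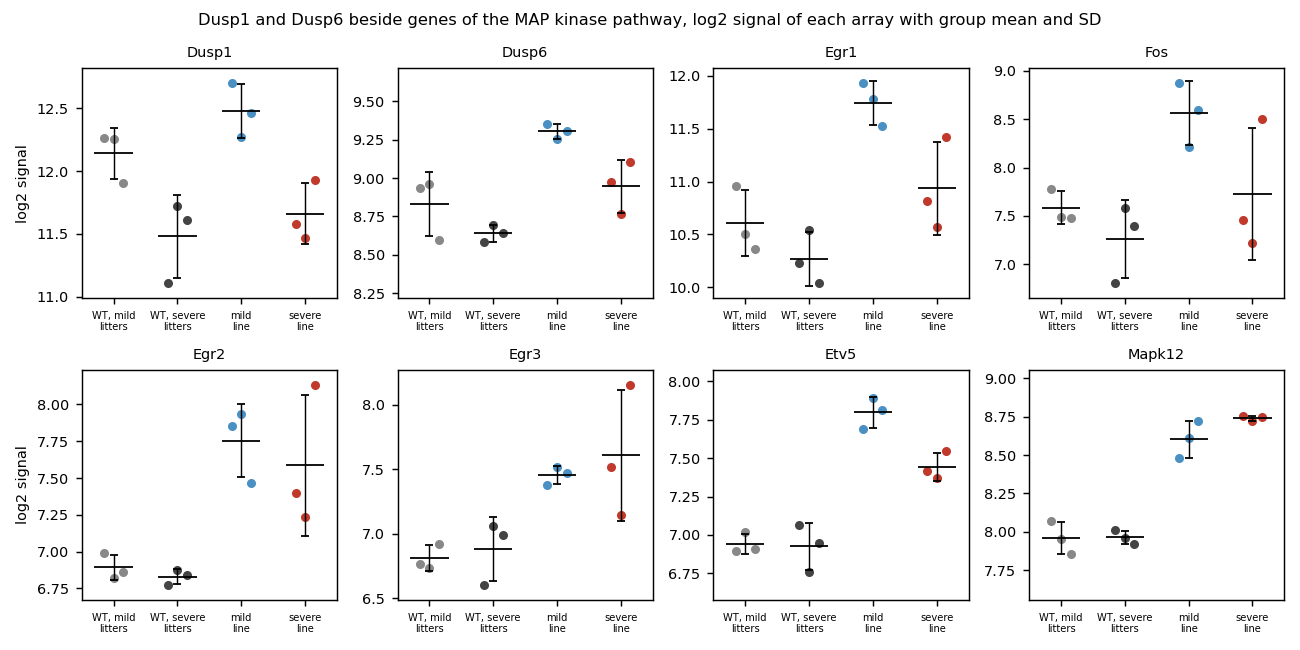
Log2 signal (y axis, 1 panel per gene with its own scale) of Dusp1, Dusp6, 4 immediate early genes, Etv5 and Mapk12 in the wild type littermates of the mild and of the severe line, the mild line and the severe line. Points are arrays, horizontal lines group means and bars SD, n = 3 each. Severe replicate 3, the point at the right of each severe group, is the highest severe array for Dusp1, Dusp6, Egr1, Fos, Egr2, Egr3 and Etv5.

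Of 20 immediate early genes, the class to which Dusp1 belongs, 19 were measured, and 5 rose in mild hearts and 2 in severe hearts, beside 1.62% and 1.75% of all features, with 0 falling. Their median log2 fold changes were 0.25 and 0.070. Egr1, a zinc finger transcription factor, ran from 10.04 to 10.96 in wild type hearts, and read 11.93, 11.78 and 11.52 in mild hearts and 10.82, 10.57 and 11.42 in severe hearts. It rose by 1.30 in mild hearts (SE 0.17, adjusted p = 9.8e-05 from limma) and had 0.50 in severe hearts (adjusted p = 0.164), which became 0.60 without replicate 1 of the wild type mice from mild litters (adjusted p = 0.0441) and 0.25 without severe replicate 3 (adjusted p = 0.608). Fos, a subunit of AP-1, rose by 1.14 in mild hearts (SE 0.22, adjusted p = 0.00496), a call that ended without mild replicate 1 (0.98, adjusted p = 0.0543) and when mild hearts were set against their own littermates alone (0.98, adjusted p = 0.0520). Fos had 0.31 in severe hearts (adjusted p = 0.634), and -0.083 without severe replicate 3. Egr2 rose by 0.89 and 0.73 in mild and severe hearts (SE 0.14, adjusted p = 6.5e-04 and 0.00558), under all 22 alternatives in both, with 0.45 in severe hearts without severe replicate 3. Egr3 rose by 0.61 and 0.76 (SE 0.15, adjusted p = 0.0246 and 0.00552), with 0.49 in severe hearts without severe replicate 3. The call of Egr3 in mild hearts ended without mild replicate 1, 2 or 3 (0.65, 0.58 and 0.60, adjusted p = 0.0672, 0.133 and 0.104) and without replicate 2 of its littermates (0.59, adjusted p = 0.0508). The fifth, Ier3, a stress response gene named after its values were seen, rose by 0.69 in mild hearts (adjusted p = 0.0351) and had 0.11 in severe hearts (adjusted p = 0.876).

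The difference of Dusp1 between the littermates of the lines, 0.66, was looked for in the immediate early genes as well. In 13 of 19 the littermates of the mild line exceeded those of the severe line and in 6 they lay lower, from -0.31 for Ier2 to 0.45 for Zfp36, with a median of 0.077 beside -0.0013 over all features. In limma 0 of 19 passed the test, beside 0.0875% of all features. At an unadjusted p under 0.05 there were 3 of 19, beside 9.97% of all features. Whether the immediate early genes share the difference of Dusp1 between the littermates of the lines was not tested.

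Markers of cells other than heart muscle were read beside Dusp26, whose transcript is also known from brain and skeletal muscle. Of 5 measured markers of nerve and Schwann cells, 1 rose in both lines, Uchl1, a ubiquitin hydrolase abundant in neurons, by 0.59 and 1.08 (adjusted p = 9.3e-04 and 1.9e-06 from limma), while S100b, Nefl and Th lay below the median feature in all 3 groups and Sox10 had -0.0012 and 0.082. Their summed signal ran from 429.7 to 490.3 in wild type hearts, 519 to 555 in mild hearts and 581 to 731 in severe hearts. The rise of that sum was mostly Uchl1, with means of 7.09, 7.68 and 8.17 in wild type, mild and severe hearts. Sox10, the next brightest, had means of 7.02, 7.02 and 7.11. Of 7 measured markers of skeletal muscle, 0 rose and 1 fell in each line, Tnni2, by 0.59 and 0.53 (adjusted p = 0.0164 and 0.0351). Their summed signal ran from 7584 to 9099 in wild type hearts, 7130 to 8617 in mild hearts and 6551 to 7597 in severe hearts. Most of that sum was Ckm, named after its values were seen, at a wild type mean of 12.91, where the next brightest, Tnni2, lay at 8.24. The promoter of this creatine kinase gene drives expression in heart as well as skeletal muscle, so the sum is not specific to skeletal muscle. Of 6 endothelial, 4 macrophage and 3 red blood cell markers none passed the test in either line. At an unadjusted p under 0.05 there were 0 to 2 of each list, beside 12.3% of all features in mild hearts and 13.5% in severe hearts. Of 6 fibroblast markers 1, Col1a1, rose in severe hearts, and 3 in each line had an unadjusted p under 0.05. All 6 lay above wild type, by 0.12 to 0.32 in mild hearts and 0.028 to 0.48 in severe hearts. Of 4 smooth muscle markers 1, Des, which heart muscle also expresses, rose in both lines. The part of these cells in the values of the family was not tested.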

How the data were processed

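Total RNA of whole hearts was hybridized to Illumina MouseWG-6 arrays. Per the labels and values, each of the authors' deposited array files gives a bead intensity per probe on a linear scale without normalization between arrays. A subtraction of background at export is not given in the sources used here. The authors' deposited table of log2 values was background corrected and quantile normalized. The submitters' processing notes name GenomeStudio and limma without versions.

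Probe IDs whose 12 values were identical were treated as 1 feature (30854 from 45281), leaving out 6 lines that had no ID. Of the IDs, 34885 had 1 symbol in the platform annotation, 18 several and 10378 none here. Intensities were corrected with normexp (offset 50), quantile normalized, put on the log2 scale and fitted with limma 3.58.1 (R 4.3.3) as 3 groups, with empirical Bayes moderation and adjustment over all features of a comparison. A fit of 4 groups gave the littermate contrasts. The brightest feature over all arrays stood for a gene. The number of arrays sets the precision. The fit was tested on simulated data.

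The members and gene lists were chosen with earlier results of these data known. Named were all members, every gene of a list past the threshold in a line where there were at most 4 and otherwise the 4 with the largest change, and the 5 features most like Dusp26; other genes are marked as named after their values were seen. Of 118 listed genes 103 had a named probe. Alternatives tried were an offset of 16, omitting the background correction, scaling by medians, starting from the authors' table, keeping only brighter features, moderation with trend and robust variances, weighting arrays, averaging a gene's features, using only littermates of the same line, adding a replicate block, the study's 2-fold rule, and omitting each array in turn.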

Additional observations from a re-analysis of the deposited data

Results flagged for a closer look

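Dusp28 was marked because 1 of 6 wild type arrays stood apart: replicate 3 of the severe line's littermates read 8.46, while the other wild type arrays lay between 8.18 and 8.25, so that the gap took 0.757 of the range. Chance marks about 1 in 20 groups of this size, and 1 of 24 features examined was marked. Dusp19 was marked because its level differed between the lines, by 0.41 on the log2 scale (adjusted p = 0.00775 from limma), with 3 of 3 mild arrays above and 3 of 3 severe arrays below all wild type arrays. The difference of the lines' changes against their own littermates did not pass the test (0.29, adjusted p = 0.475).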

How the results depend on the processing

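Dusp26 kept its direction in both lines under all 22 alternatives (2.47 to 3.02 and 2.13 to 2.65). The number of members past the threshold stayed at 1 in severe hearts. In the mild line it ran from 2 to 4 when single arrays were left out, and was 1 under the study's 2-fold rule. Dusp3 was not past the threshold in mild hearts against own littermates, without or with the replicate block. Between the lines the number of members was 0 to 1 without single arrays and 1, Dusp1, with the littermates of each line fitted as a separate group. The Dusp3 difference between the lines turned to -0.013 with the replicate block and -0.0019 without mild replicate 1, and Fos in severe hearts to -0.083 without severe replicate 3, with ranges of -0.0019 to 0.16 and -0.083 to 0.56 over the single arrays left out.

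Without single arrays, the genes past the threshold in a line numbered 2 to 4 for the other dual-specificity phosphatases, 1 to 3 for MAP kinases and their kinases, 0 to 1 for other phosphatases of MAP kinases, 0 to 1 for ERK inhibitors, 1 to 3 for MAP kinase targets and 4 to 6 for immediate early genes. For the other dual-specificity phosphatases the number was 0 with an offset of 16 and under the 2-fold rule, and 1 with own littermates, without or with the replicate block. For other phosphatases of MAP kinases it was 0 with an offset of 16, median scaling, trend and robust variances, own littermates, the block and the 2-fold rule. For MAP kinase targets it was 1 with an offset of 16 and with the block, and 0 under the 2-fold rule. For MAP kinases it was 2 with array weights and 0 under the 2-fold rule. For immediate early genes it was 3 with trend and robust variances and with own littermates, and 2 under the 2-fold rule. The cause of these changes in number was not tested. With own littermates there were also fewer controls, and the 2-fold rule is stricter by definition.

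No sign was seen that replicate numbers pair the hearts. Deviations of same-numbered littermates correlated at -0.24 to 0.056, and 1 of 6 transgenic arrays correlated best with its own number. With 3 arrays in a group, this check cannot exclude a pairing. With the replicate block, 622 features were past the threshold in mild hearts and 534 in severe hearts, beside 721 and 716 with own littermates alone. With the block, Dusp26 was 2.77 and 2.30.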
